A study of Mus musculus with 6 samples.

Results

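The genes of MHC antigen presentation and peptide loading were examined in untreated and itaconate-exposed RAW264.7 cells. The group holds 10 genes of the 35976 symbols of the count table, chosen by symbol: the class I heavy chain genes H2-D1 and H2-K1, the light chain gene B2m, the peptide supply genes Tap1, Tap2, Tapbp and Erap1, the class I regulator Nlrc5, the class II invariant chain gene Cd74 and the class II regulator Ciita. All 10 had a row and at least some counts. RAW264.7 is a mouse line with macrophage properties, established from a BALB/c mouse and transformed by a leukemia virus. Of the 6 libraries, 3 came from cells with no treatment (control) and 3 from cells kept with itaconate for 24 h, and RNA was counted by 3′ mRNA sequencing (Lexogen QuantSeq FWD). Itaconate is a metabolite of activated macrophages, a dicarboxylate derived from cis-aconitate of the TCA cycle. The labels name no dose, chemical form or vehicle for the itaconate. Nothing says that replicate libraries are separate cultures. The p-values of single genes set the difference between groups against the spread among libraries of a group, a spread that may be only technical. Library totals ran from 5202626 to 6098934 counts.

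Class I molecules show peptides from inside the cell to CD8+ T cells. Proteasomes cut proteins, the TAP1-TAP2 transporter carries the peptides into the endoplasmic reticulum, tapasin (Tapbp) holds the empty class I molecule at the transporter, the aminopeptidase ERAP1 trims the peptides, and the heavy chain leaves for the cell surface with its peptide and β2-microglobulin (B2m). Class II molecules show peptides from endosomes to CD4+ T cells, and the invariant chain (Cd74) blocks and guides them until they reach those endosomes. NLRC5 and CIITA are related coactivators that have no DNA-binding domain of their own and act at the S, X and Y boxes of class I and class II promoters, and interferons raise many of these genes.

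Promoter windows of H2-D1, H2-K1, B2m and Tap1 are shown because these genes are usually described as sharing regulatory elements, whereas their counts moved in opposite directions. The windows are from RefSeq (GRCm38.p6, which is mm10), and entries were matched by symbol for 6 of the 10 members: these 4, Tapbp and Erap1. This reference is of the strain C57BL/6J, which carries other H2 alleles than BALB/c, so the sequences in RAW264.7 cells may differ. Each window runs from 250 bases before to 50 bases after the start site, 5′ to 3′ on the gene's strand. Capitals mark matches to the motifs searched. The windows lie at chr17:35262844-35263143 (H2-D1, plus strand), chr17:34000298-34000597 (H2-K1, minus strand), chr2:122147437-122147736 (B2m, plus strand) and chr17:34187306-34187605 (Tap1, plus strand).
H2-D1: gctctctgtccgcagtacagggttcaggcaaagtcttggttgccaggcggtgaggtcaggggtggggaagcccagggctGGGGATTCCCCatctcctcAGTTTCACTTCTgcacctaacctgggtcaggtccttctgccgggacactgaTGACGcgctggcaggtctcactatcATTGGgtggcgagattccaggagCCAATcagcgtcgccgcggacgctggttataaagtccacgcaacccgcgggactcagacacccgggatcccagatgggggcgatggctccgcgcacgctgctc
H2-K1: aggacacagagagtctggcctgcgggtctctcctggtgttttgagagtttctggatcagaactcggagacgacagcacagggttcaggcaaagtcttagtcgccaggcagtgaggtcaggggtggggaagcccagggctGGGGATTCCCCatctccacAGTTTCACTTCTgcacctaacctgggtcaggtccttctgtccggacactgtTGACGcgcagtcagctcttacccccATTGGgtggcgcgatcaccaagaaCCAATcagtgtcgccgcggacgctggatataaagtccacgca
B2m: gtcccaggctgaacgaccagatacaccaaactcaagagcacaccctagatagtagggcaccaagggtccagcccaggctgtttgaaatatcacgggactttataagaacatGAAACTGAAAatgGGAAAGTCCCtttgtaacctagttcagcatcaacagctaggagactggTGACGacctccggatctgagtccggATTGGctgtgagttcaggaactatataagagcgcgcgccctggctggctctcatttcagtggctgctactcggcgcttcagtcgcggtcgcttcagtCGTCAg
Tap1: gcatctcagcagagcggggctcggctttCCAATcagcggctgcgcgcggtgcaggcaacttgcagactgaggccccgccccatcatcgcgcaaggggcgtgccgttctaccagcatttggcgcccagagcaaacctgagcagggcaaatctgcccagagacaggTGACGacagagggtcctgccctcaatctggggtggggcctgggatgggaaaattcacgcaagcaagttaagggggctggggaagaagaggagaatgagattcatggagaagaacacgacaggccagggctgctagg

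Motifs were searched on both strands, and a match describes letters, not a bound site. Of 32851 RefSeq windows of this length, 20.8% held TGACG, the core of the X2 box, and 37.4% held CCAAT, the core of the Y box. An interferon response element, searched as GAAA, any 2 bases and GAAA, was in 3.44%, the GAS motif TTCNNNGAA in 8.3%, and the kB motifs, searched as GGGA or GGGG, any 2 bases and TTCC, each in 1.47%. All 4 windows held TGACG and CCAAT, but not in the same arrangement. In H2-D1, H2-K1 and B2m, TGACG at -101, -41 and -78 was followed by a minus-strand CCAAT at -76, -16 and -53. In Tap1 the only CCAAT stood upstream of TGACG, at -222 on the plus strand against -86. The interferon response element and the kB motif that starts with GGGA were found in the B2m window, at -139 and -126 from the start site. The class I interferon consensus sequence AGTTTCACTTCT and the kB element GGGGATTCCCC of the class I enhancer were added after the sequences were seen. Both were copied from the H2-D1 window, so their presence there was fixed. They stood at -152 and -171 in H2-D1 and at -92 and -111 in H2-K1. Of all windows 0.0335% and 0.0304% held them, among these the windows of H2-D1, H2-K1 and the paralog H2-Q6. These shares therefore do not measure how unusual the match between the heavy chain windows is. RefSeq has 2 starts for H2-K1, 14 bases apart, of which the one listed first was used. Over 240 aligned columns the H2-D1 and H2-K1 windows were 87.9% identical. The Tap1 start site lies 226 bases from that of Psmb9, an immunoproteasome gene on the opposite strand, and their windows share 275 bases.

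**Figure D1:**
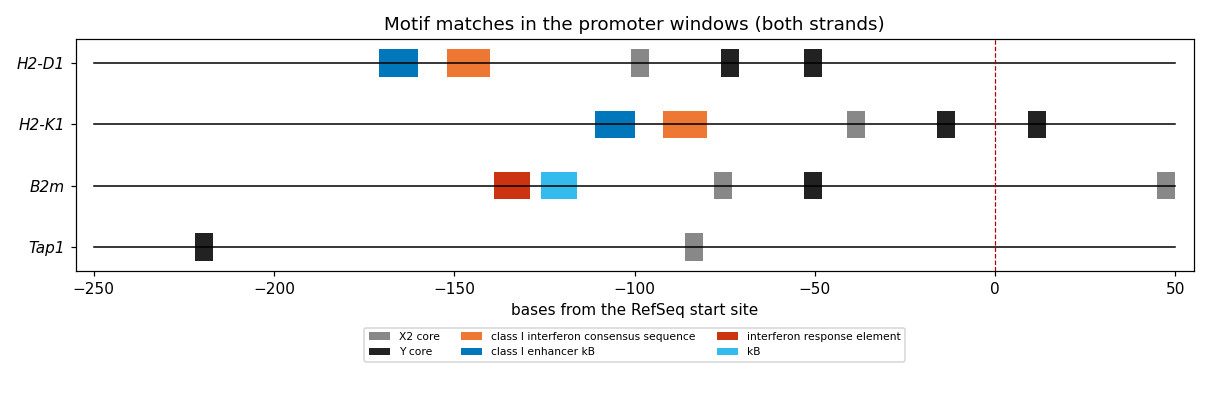
Motif matches on either strand in the promoter windows of H2-D1, H2-K1, B2m and Tap1, plotted by distance in bases from the RefSeq start site (dashed line). H2-D1 and H2-K1 hold the same elements in the same order, shifted by the position of the start site. Tap1 holds X2 and Y cores alone among the motifs searched, with its Y core upstream of its X2 core.

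Levels are given as CPM, in which the totals of all libraries are brought to 1 size. Of the 10 members, 9 passed the filter on low counts, 2 were called higher and 4 lower with itaconate, and 3 were not called (edgeR quasi-likelihood test, Benjamini-Hochberg adjusted p under 0.05 over 10636 genes). Of all genes tested, 21.9% were called, 10.7% higher and 11.2% lower. The class I heavy chain genes rose, while B2m, Tap1, Tapbp and Cd74 fell. The median log2 fold change (itaconate over control) of the 9 tested members was -0.19, and that of all tested genes was -0.01. The libraries of the groups did not overlap for the 6 called members, a separation seen in 35.6% of all tested genes. In bulk RNA, fewer cells of a type and less RNA per cell cannot be told apart.

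**Figure D2:**
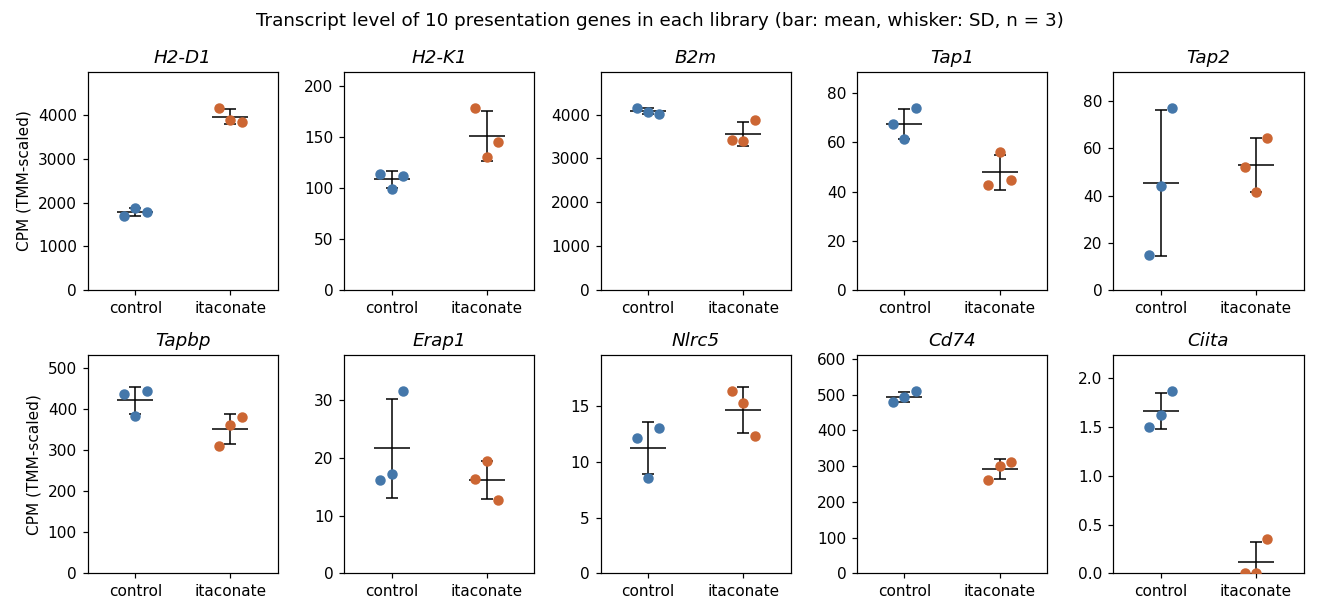
Level in CPM, scaled with TMM factors, of the 10 members in each library, on linear axes that start at 0, with 3 points per group, the mean as a bar and the SD as a whisker. The points of H2-D1 and H2-K1 lie higher with itaconate, those of B2m, Tap1, Tapbp, Cd74 and Ciita lie lower, and those of Tap2, Erap1 and Nlrc5 overlap.

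H2-D1 encodes a classical class I heavy chain and lies on chromosome 17 from 35262730 to 35267499 (GENCODE M21, GRCm38). Its level was 1701, 1886 and 1781 CPM in the control libraries and 4163, 3887 and 3847 CPM in the itaconate libraries. Every itaconate library was far above every control library. The log2 fold change was 1.15 ± 0.07 (SE; adjusted p = 8.90e-19 by edgeR), which is 2.22-fold, and it ran from 1.10 to 1.19 over 13 other fits, all of which called it. H2-K1, the other classical heavy chain gene of the reference strain, lies on the same chromosome from 33996017 to 34000347 on the minus strand. It had 114, 99.3 and 112 CPM in control and 178, 130.3 and 145 CPM in itaconate libraries. The groups did not overlap, with itaconate replicate 1 highest. H2-K1 rose by 0.48 ± 0.11 on the log2 scale (SE; adjusted p = 0.00104 by edgeR), and all 13 other fits called it, with log2 fold changes from 0.34 to 0.57.

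Counts of H2 genes are uncertain, because these paralogs are close and the reference genome is of the strain C57BL/6J, which carries other H2 alleles than BALB/c. H2-L, a class I gene of BALB/c mice, had no row under that symbol in the count table, so it could not be analysed. Whether its reads were counted under H2-D1 or another H2 row cannot be told apart in these counts, which bears on the level, fold change and shares of H2-D1. Of the stretches of 50 bases in the last 400 bases of the reference transcripts, 10.11% of those of H2-D1 and 10.2% of those of H2-K1 also occurred in transcripts of other genes. The last 400 bases of the longest H2-D1 and H2-K1 transcripts were 62.2% identical, against 79.3% for the whole transcripts. To set the split between copies aside, the counts of 24 H2 class I rows were added up. This sum was 1943, 2120.2 and 2049 CPM in control and 4484, 4157 and 4151 CPM in itaconate libraries. It rose by 1.07 ± 0.07 on the log2 scale (SE; adjusted p = 6.71e-18 by edgeR). The 22 rows other than H2-D1 and H2-K1 gave 139 ± 14.4 CPM (control) and 147 ± 11.2 CPM (itaconate; SD, n = 3), and this sum was not called (log2 fold change 0.08 ± 0.10, adjusted p = 0.648 by edgeR).

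H2-D1 made up a larger part of the class I counts after itaconate. Of the H2-D1 plus H2-K1 counts, H2-D1 held 93.7%, 95.0% and 94.1% in control and 95.9%, 96.8% and 96.4% in itaconate libraries. The groups did not overlap, and the difference of 2.08 percentage points had an exact two-sided permutation p of 0.1, the smallest that 3 libraries against 3 can give (0.122 adjusted over 11 such shares). Of all H2 class I counts, H2-K1 held 5.35% ± 0.607 in control and 3.53% ± 0.422 in itaconate libraries, H2-Q7 2.80% ± 0.577 and 1.32% ± 0.333, and H2-T22 2.31% ± 0.0761 and 1.12% ± 0.0659 (SD, n = 3). These are parts of a sum that is mostly H2-D1, so their lower shares follow from its rise: H2-K1 rose in level, and H2-Q7 and H2-T22 were not called. Shares within a library do not depend on how libraries are scaled.

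**Figure D3:**
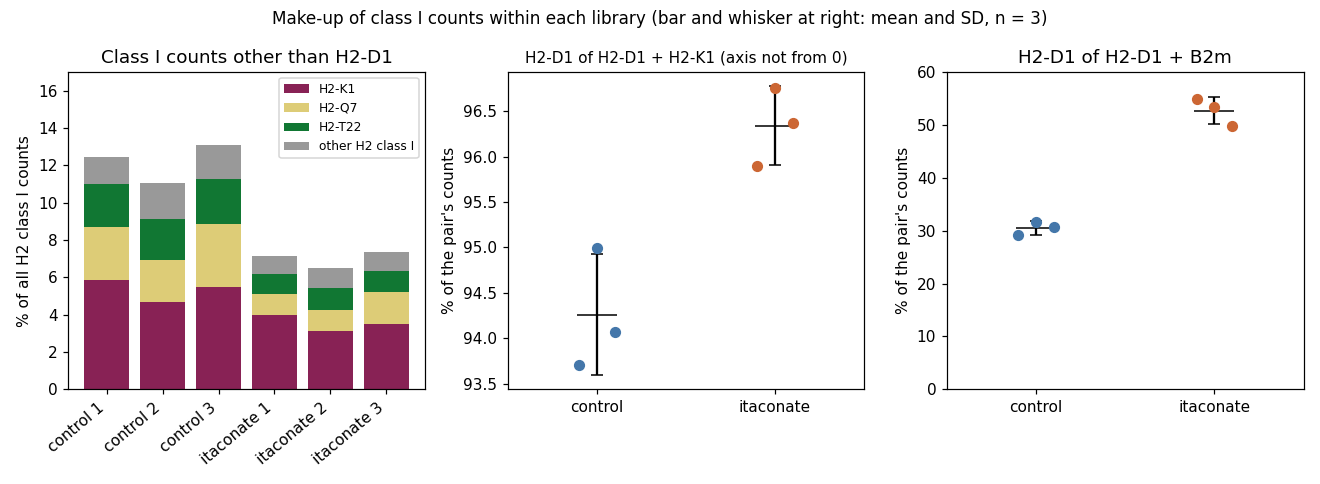
Left, the share of all H2 class I counts taken by genes other than H2-D1 in each library, stacked from 0. Middle and right, the percentage of H2-D1 in the H2-D1 plus H2-K1 counts (axis not from 0) and in the H2-D1 plus B2m counts, with mean and SD over 3 libraries. Both percentages are higher in every itaconate library.

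Among the other class I and class I-like genes fixed as a list, 27 had a row, 15 had a count and 8 were tested. Of these, 2 rose, 1 fell and 5 were not called, with a median log2 fold change of 0.01. The shares called over all tested genes were 10.7% higher and 11.2% lower. Mr1, whose product shows microbial vitamin B metabolites to MAIT cells, went from 10.2 ± 2.40 to 25.2 ± 1.89 CPM (SD, n = 3), a rise of 1.30 ± 0.25 on the log2 scale (SE; adjusted p = 6.82e-05 by edgeR). H2-K2, a transcribed class I pseudogene next to H2-K1, rose by 1.19 ± 0.30 (adjusted p = 0.00242 by edgeR), but 40.7% of the stretches of its 3′ end also occur in other genes, H2-D1 among them. Hfe, the class I-like gene of iron sensing, fell by 0.85 ± 0.22 on the log2 scale (adjusted p = 0.00327 by edgeR). H2-Q7, at 56.8 ± 11.2 and 56.2 ± 12.9 CPM (SD, n = 3), and H2-T22, at a log2 fold change of 0.03 ± 0.15, were not called. Besides H2-D1 and H2-K1, 3 tested genes have AGTTTCACTTCT in their window: H2-Q7, Apobec3, which was not called (log2 fold change -0.32 ± 0.20), and Ly86, which encodes the RP105 partner MD-1 and fell (-1.02 ± 0.24). The tested gene besides these with GGGGATTCCCC was Atg16l2, not called at 0.19 ± 0.21. Apobec3, Ly86 and Atg16l2 were chosen for the motifs after values were seen. H2-T22 shares 63.2% of its 3′ stretches with H2-T10.

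B2m, the light chain of every classical class I molecule, lies on chromosome 2 from 122147686 to 122153083. It had 4144, 4068 and 4011 CPM in control and 3423, 3389.8 and 3881 CPM in itaconate libraries. Every itaconate library was below every control library, with itaconate replicate 3 close to them. B2m fell by 0.19 ± 0.07 on the log2 scale (SE; adjusted p = 0.0377 by edgeR). That call was lost with the replicate number as a block (0.0723) and without control replicate 1 (0.0958), control replicate 2 (0.107), itaconate replicate 1 (0.148) or itaconate replicate 2 (0.221), and the adjusted p ran from 0.00285 to 0.221 over the 13 other fits. Heavy and light chain transcripts changed in opposite directions, but the B2m call was lost in 5 of the 13 other fits. Of the H2-D1 plus B2m counts, H2-D1 held 30.5% ± 1.30 without itaconate and 52.7% ± 2.63 with it (SD, n = 3). The exact permutation test over libraries, two-sided, gave its smallest possible p of 0.1. A rise of H2-D1 alone raises this share, so the share does not show a fall of B2m. None of the 3′ stretches of B2m occurred in another gene.

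The transporter subunit gene Tap1 lies on chromosome 17 from 34187553 to 34197225 and overlaps Psmb9 at their 5′ ends, on the opposite strand. It had 67.3, 61.6 and 73.9 CPM in control and 42.6, 56.1 and 44.6 CPM in itaconate libraries. The groups did not overlap. Tap1 fell by 0.50 ± 0.15 on the log2 scale (SE; adjusted p = 0.00973 by edgeR), which no longer passed without control replicate 3 (0.0647) or itaconate replicate 1 (0.0629), with 0.00445 to 0.0647 over the 13 other fits.

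Tap2, the other subunit, lies on chromosome 17 from 34203527 to 34216321. It varied more between control libraries than between groups, with 15.03, 44.2 and 77.05 CPM in control and 52.2, 41.7 and 64.5 CPM in itaconate libraries. The 3 control libraries spanned the whole range of the itaconate libraries, and control replicate 1 was lowest although its Tap1 level was like that of the other controls. Tap2 was not called (log2 fold change 0.23 ± 0.62, adjusted p = 0.858 by edgeR), and without control replicate 1 its log2 fold change was -0.19. Of its 3′ stretches, 9.35% also occur in an antisense gene.

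Tapbp, which encodes tapasin, lies on chromosome 17 from 33915899 to 33929292. It had 438, 383 and 443 CPM in control and 311, 361 and 382 CPM in itaconate libraries. The highest itaconate library lay just under the lowest control library. Tapbp fell by 0.26 ± 0.09 on the log2 scale (SE; adjusted p = 0.0234 by edgeR), which no longer passed without control replicate 1 (0.0957), control replicate 3 (0.105), itaconate replicate 1 (0.193) or itaconate replicate 2 (0.0524), with 0.00519 to 0.193 over the 13 other fits. Of its 3′ stretches, 29.6% also occur in the neighbouring genes Gm19412 and Zbtb22. Zbtb22 itself was not called (0.19 ± 0.33 on the log2 scale, adjusted p = 0.751 by edgeR).

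The peptide-trimming gene Erap1, on chromosome 13 from 74639568 to 74693201, had 16.2, 17.2 and 31.5 CPM in control and 16.3, 19.4 and 12.7 CPM in itaconate libraries. The groups overlapped, with control replicate 3 apart from the other controls. Erap1 was not called (log2 fold change -0.42 ± 0.25, adjusted p = 0.265 by edgeR). Of its 3′ stretches, 26.5% also occur in Cast on the opposite strand.

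Of 11 other genes of class I peptide transport, trimming and loading, all tested, 1 rose, 1 fell and 9 were not called, with a median log2 fold change of 0.06. For comparison, 10.7% of all tested genes were called higher and 11.2% lower. Calr, the chaperone calreticulin of the loading complex, fell from 471 ± 15.2 to 383 ± 32.7 CPM (SD, n = 3, log2 fold change -0.30 ± 0.08, adjusted p = 0.00597 by edgeR). Its partners in the complex were not called, the oxidoreductase gene Pdia3 at 535 ± 35.8 and 511 ± 24.0 CPM and the chaperone gene Canx at 437 ± 35.5 and 478 ± 27.9 CPM. Nrd1, a cytosolic peptidase gene, rose by 0.37 ± 0.11 on the log2 scale (adjusted p = 0.00897 by edgeR), which no longer passed without control replicate 3 (0.0905, with 0.00544 to 0.0905 over the 13 other fits). Of its 3′ stretches, 33.3% also occur in Osbpl9 on the opposite strand.

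Immunoproteasome genes encode the catalytic subunits and activators that interferon adds to the proteasome. In the list of 6 immunoproteasome and PA28 activator genes, 5 fell, 1 was not called and 0 rose, with a median log2 fold change of -0.52. The number higher was 0 also at an unadjusted p under 0.05 in edgeR, with DESeq2 and with limma-voom. Over all tested genes, 11.2% were called lower. The catalytic subunit gene Psmb9 went from 82.2 ± 14.5 to 50.3 ± 5.18 CPM (SD, n = 3), a log2 fold change of -0.71 ± 0.14, and Psmb10 had a log2 fold change of -0.75 ± 0.14. Psmb8, the third catalytic subunit gene, fell by 0.42 ± 0.10 (adjusted p = 0.00151 by edgeR). The activator gene Psme1 fell by 0.61 ± 0.12 and Psme2, chosen after its values were seen, by 0.43 ± 0.15 on the log2 scale. Psme3, the gene of the nuclear activator PA28γ, had a log2 fold change of 0.04 ± 0.12 and was not called. Of the 3′ stretches of Psme1, 12.9% also occur in Gm7776 and Gm46496, and of those of Psmb8 9.99% in Gm20496.

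**Figure D4:**
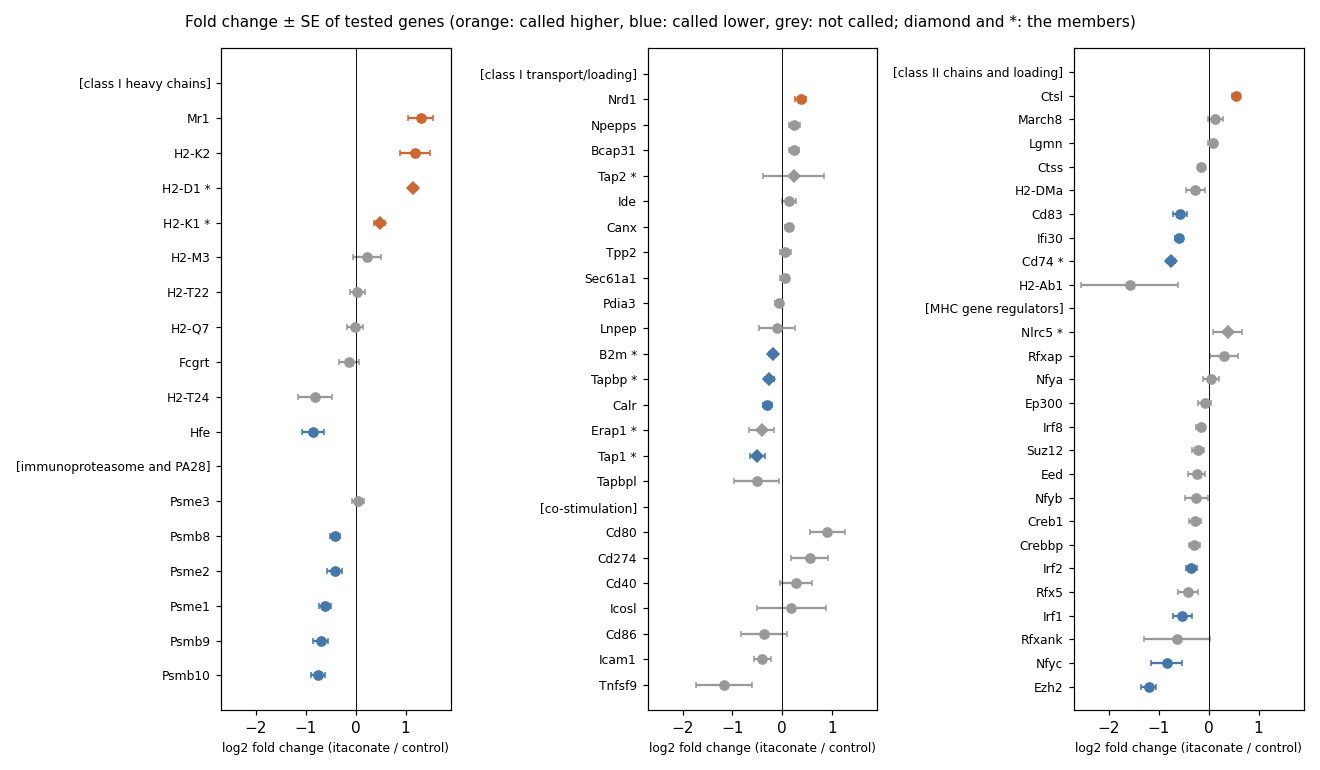
Log2 fold change (itaconate over control) with its SE for the tested genes of the 6 presentation lists except 1 that is not reported, sorted within each list. Diamonds with an asterisk mark the members, orange and blue mark genes called higher and lower, and grey those not called. H2-D1 and H2-K1 stand on the higher side, and all immunoproteasome and PA28 genes except Psme3 on the lower side.

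Nlrc5, on chromosome 8 from 94434356 to 94527272, had 12.2, 8.59 and 13.03 CPM in control and 16.3, 15.3 and 12.4 CPM in itaconate libraries. The groups overlapped, and Nlrc5 was not called (log2 fold change 0.38 ± 0.29, adjusted p = 0.383 by edgeR). Of 16 other regulators of MHC genes, all tested, 5 fell, 11 were not called and 0 rose, against 11.2% of all tested genes called lower. The number higher was 0 also at an unadjusted p under 0.05 in edgeR, with DESeq2 and with limma-voom. The median log2 fold change of these regulators was -0.29, and DESeq2 called 4 lower. Ezh2, the Polycomb methyltransferase gene, fell by 1.21 ± 0.15 (adjusted p = 5.34e-09 by edgeR). The interferon regulatory factor genes Irf1 and Irf2 fell by 0.53 ± 0.18 and 0.35 ± 0.11 on the log2 scale, with adjusted p = 0.0308 and 0.0169 by edgeR. The Irf1 call was lost without control replicate 2 (0.224) and when itaconate replicate 1 (0.144) or 3 (0.0622) was left out, and its adjusted p ran from 0.0175 to 0.224 over the 13 other fits. The Irf2 call was lost without control replicate 3 (0.0869) and when itaconate replicate 1 (0.101) or 2 (0.0651) was left out, and its adjusted p ran from 0.00478 to 0.101. Nfyc, a Y-box binding subunit gene chosen after its values were seen, was also called, at -0.84 ± 0.31 with overlapping libraries. Irf8, at 239 ± 13.9 and 213 ± 21.5 CPM, and the coactivator gene Crebbp, at -0.29 ± 0.11 on the log2 scale, were not called, though 6 of the 13 other fits called Crebbp lower.

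Cd74 encodes the invariant chain and lies on chromosome 18. It had 479.9, 494 and 509 CPM in control and 259.9, 302 and 313 CPM in itaconate libraries. All itaconate libraries lay well under all control libraries. Cd74 fell by 0.76 ± 0.08 on the log2 scale (SE; adjusted p = 4.46e-10 by edgeR), which is 1.70-fold lower, and all 13 other fits called it, from -0.81 to -0.68.

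Ciita, the master regulator of class II genes, lies on chromosome 16 from 10480059 to 10528418. It was the member that did not pass the filter on low counts. It had 9, 10 and 10 counts in the control libraries and 0, 0 and 2 counts in the itaconate libraries. Control libraries were each at about the same count, and every itaconate library was below them. Summed over libraries, 29 and 2 counts gave an itaconate to control ratio of 0.0736, with an exact 95% binomial interval of 0.00851 to 0.291 that covers counting error only. Without a low-count filter, edgeR gave an adjusted p of 0.173, so the difference was not called.

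Class II chain genes were close to the limit of detection, for which 3 counts in a library correspond to 0.486 to 0.563 CPM. H2-Aa, which was chosen after its values were seen like the other chain genes here, had 9, 4 and 8 counts in control libraries and 0 counts in every itaconate library. Over its summed counts, 21 and 0, the exact 95% interval of the itaconate to control ratio reached up to 0.205, and without a filter its adjusted p by edgeR was 0.103. H2-Ab1 had 17, 17 and 3 counts in control and 0, 11 and 0 in itaconate libraries, which overlap, and was not called (adjusted p = 0.268 by edgeR). The peptide exchange gene H2-DMb1 had 14, 1 and 14 counts against 0, 0 and 3. These overlap, and without a filter edgeR gave H2-DMb1 an adjusted p of 0.235. H2-DMa, its partner, was well above the limit at 34.2 ± 5.23 and 28.3 ± 3.31 CPM (SD, n = 3) and was not called (log2 fold change -0.27 ± 0.19).

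**Figure D5:**
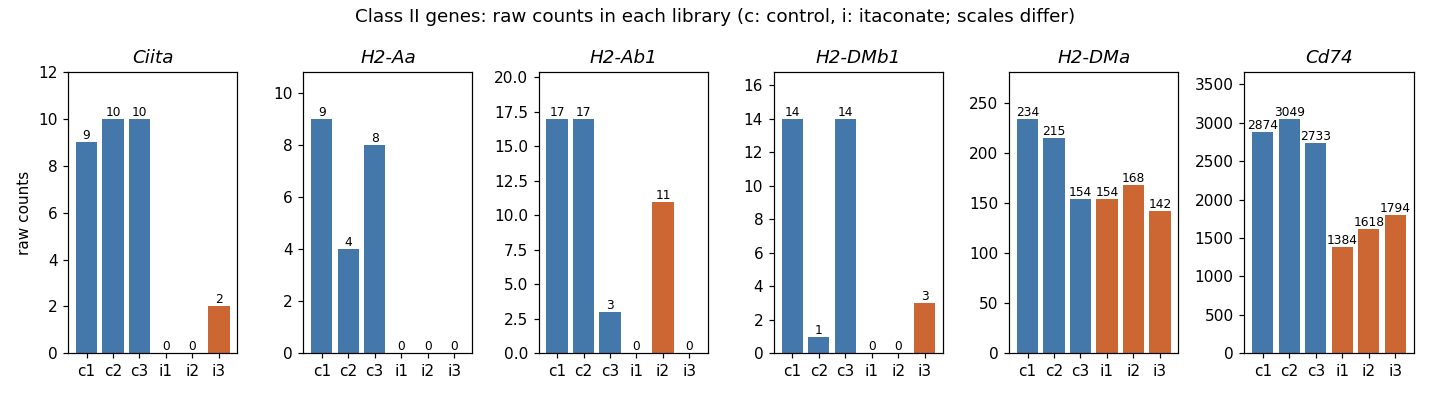
Raw counts of Ciita, H2-Aa, H2-Ab1, H2-DMb1, H2-DMa and Cd74 in each library (c, control; i, itaconate), on separate axes from 0. Ciita has 9 or 10 counts in control libraries and 0 to 2 with itaconate, and Cd74 has 2733 to 3049 and 1384 to 1794.

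Besides Cd74, 17 class II genes had a row and 8 were tested, of which 1 rose, 2 fell and 5 were not called, with a median log2 fold change of -0.22. Among all tested genes, 10.7% were called higher and 11.2% lower. Ifi30, the thiol reductase that unfolds antigens in endosomes, fell from 651 ± 29.9 to 432 ± 13.3 CPM (SD, n = 3, log2 fold change -0.59 ± 0.08, adjusted p = 4.13e-08 by edgeR). Cd83, whose product stabilises surface class II, fell by 0.58 ± 0.14 (adjusted p = 0.00184 by edgeR). The endosomal protease gene Ctsl rose by 0.54 ± 0.08 (adjusted p = 1.23e-07 by edgeR). Ctss, the protease that cuts the invariant chain in antigen-presenting cells, had 2749 ± 66.5 and 2464 ± 9.30 CPM and was not called (adjusted p = 0.0939), although library totals (0.0113), DESeq2 (0.0336) and limma-voom (0.03875) called it lower, with 0.0113 to 0.236 over the 13 other fits. Lgmn, the asparaginyl endopeptidase gene, had 352 ± 44.0 and 372 ± 36.9 CPM and was not called. Of 7 tested co-stimulation genes 0 were called with edgeR, DESeq2 or limma-voom, against 21.9% of all tested genes called with edgeR. The unadjusted p by edgeR was under 0.05 for 1 higher and 2 lower. Icam1 had a log2 fold change of -0.40 ± 0.16 (adjusted p = 0.0742, and called lower with library totals and without control replicate 3) and Cd40 of 0.27 ± 0.32. All 3′ stretches of Icam1 (100%) also occur in Gm47079 on the opposite strand, so its count is uncertain.

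Over the 6 lists without the members, 4 of 56 tested genes were higher and 14 lower, with a median log2 fold change of -0.19. Of all tested genes, 10.7% were called higher and 11.2% lower. Markers of macrophages were present, 10 of 10 with counts, and their summed level was 8189 to 9323 CPM in control and 6099 to 6435 CPM in itaconate libraries. Of these 10, 2 were called higher, 5 lower and 3 were not called. Csf1r, the CSF-1 receptor gene, went from 3684 ± 386 to 1832 ± 20.3 CPM and Cd14 from 1503 ± 72.9 to 775 ± 71.7 CPM, while Cd68 went from 1092 ± 34.6 to 1342 ± 53.4 CPM and Cebpb from 92.5 ± 15.9 to 127 ± 19.0 CPM (SD, n = 3). Among class II-bearing cell types, 5 of 8 B cell markers, including Cd79a and Ms4a1, had 0 counts and the list summed to 1.30 to 6.01 CPM in control and 1.49 to 4.36 CPM in itaconate libraries. The dendritic cell list summed to 17.2 to 24.2 CPM in control and 34.9 to 41.1 CPM in itaconate libraries, with Cd209a, Siglech and Ccr7 at 0. Both tested genes of that list were called higher, Itgax by 1.04 ± 0.22 and Zbtb46 by 1.33 ± 0.48 on the log2 scale, while the untested Xcr1 had 38 and 13 counts over the libraries of a group and Clec9a 13 and 2. The T cell list, with Cd3e and Cd8a at 0, summed to 45.2 to 48.1 and 30.4 to 32.4 CPM. Most of that sum was Cd28, called lower at 43.7 ± 2.43 and 25.7 ± 2.81 CPM (SD, n = 3), and Lck, at 2.59 ± 1.80 and 5.31 ± 2.71 CPM, was not called. Fibroblast markers summed to 2.50 to 3.72 and 0.751 to 2.61 CPM, with Col3a1, Dcn and Lum at 0, and epithelial markers to at most 1.12 CPM, with Krt8, Krt18, Krt19 and Cldn4 at 0. These marker genes are named after their values were seen. The part of these levels in the results was not tested.

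Over the 6 libraries and 9196 other genes of at least 5 CPM, the log2 CPM pattern of H2-D1 was most like those of Clec4d (Pearson r = 0.9999), Slc7a11 (0.9996) and Tbc1d23 (0.9991), and that of H2-K1 most like those of Klf10 (0.986), Tax1bp1 (0.984) and Ggct (0.982). These values describe 6 points that share 2 groups.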

How the data were processed

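The authors deposited 1 table of unscaled read counts by gene symbol. STAR 2.7.5a, HTSeq 0.6.1, edgeR and mm10 are listed in the submitters' processing notes. The strand setting, the handling of multi-mapped reads and the annotation were not given in the sources used here. Data lines hold 6 count columns in the order of the 6 header names, and 0 columns belonged to other series. Library totals ran from 5202626 to 6098934 counts. Floors and intervals reflect counting error alone and treat reads as independent. Reads that carry no molecular identifier are not independent, so the intervals may be too narrow.

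Genes passing edgeR's filterByExpr (minimum count 10, total 15) numbered 10636. Groups came from the treatment label. Libraries were scaled by TMM and tested by quasi-likelihood F test in edgeR 4.0.16 (R 4.3.3), two-sided, with group as the only term. SE is the absolute log2 fold change over the square root of F. Alternatives were library totals, RLE size factors, DESeq2 1.42.0, limma-voom 3.58.1, other filters, the replicate number as a block, and leaving out each library. The edgeR, limma-voom and DESeq2 fits with the default filter were run on simulated counts, and the other alternatives were not. Gene models and transcripts are from GENCODE M21 (GRCm38).

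The members, lists and naming rule were chosen with earlier results of these data known. The rule names all members and, from each of 6 lists, up to 4 called genes by smallest p and up to 2 uncalled genes by highest level. A gene that the rule names is not reported here, though it stays in the counts. Replicates of a group differed by more than sampling noise (chi-square per gene 4.77 to 7.49).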

Additional observations from a re-analysis of the deposited data

How the results depend on the processing

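Both members called higher were called in all 13 other fits. The 4 called lower became 3 with the replicate block and 1 to 4 when 1 library was left out: 2 remained called without control replicate 1 or 3 and also without itaconate replicate 2, and 1 without itaconate replicate 1. Each of these fits holds 1 library fewer. The summed class I counts kept a log2 fold change of 1.01 to 1.10. In the other lists 13 to 18 genes were lower under other settings, and 11 to 15 with 1 library left out. Same-numbered libraries did not deviate together (r = -0.0135, 0.0171 and 0.0380), so the numbers were not taken to pair them.

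Directions turned only for genes not called. With library totals H2-T22 was at -0.026 and Psme3 at -0.015. With 1 library left out the log2 fold change ran from -0.19 to 0.83 for Tap2, from -0.21 to 0.15 for H2-Q7, from -0.0090 to 0.055 for H2-T22, from -0.0011 to 0.18 for Lgmn, from -0.067 to 0.12 for Psme3 and from -0.024 to 0.63 for Cd40. Depth limits Ciita and the class II chain genes, whose counts in most libraries were at or under 17.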
